A study of Homo sapiens with 6 samples.

Results

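The zinc-dependent histone deacetylases (HDACs) are the enzyme family to which the targets of PCI-24781 belong, and the data here give the transcript level of 10 of their genes in breast cancer cells that received the drug. The 10 genes were found among the 16623 genes of the expression tables by NCBI Gene ID: HDAC1, HDAC2, HDAC3 and HDAC8 of class I, HDAC4, HDAC5, HDAC7 and HDAC9 of class IIa, HDAC6 of class IIb and HDAC11 of class IV. The rule used gene names alone and no expression value, although the members were chosen with earlier results of these data known. All 10 were present in every library and all 10 passed the filter on low values.

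HDACs remove acetyl groups from lysines of histones and of other proteins, with a zinc ion in the active site. Class I enzymes sit mainly in the nucleus as the catalytic subunits of corepressor complexes (SIN3, NuRD, CoREST and NCoR/SMRT), and they carry most of the histone deacetylase activity of a cell. Class IIa proteins shuttle between nucleus and cytoplasm under the control of kinases and 14-3-3 proteins, bind MEF2 transcription factors and have little catalytic activity of their own, while HDAC6 is a cytoplasmic enzyme that deacetylates tubulin and HDAC11 stands alone as class IV. A hydroxamate such as PCI-24781 binds the zinc and blocks the enzyme, so it acts on the protein, and what RNA-seq reads is only how much transcript of each enzyme the cells hold. The study calls PCI-24781 a pan-HDAC inhibitor, but the enzymes it lists as inhibited are of classes I and IIb.

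The cells were MDA-MB-231, an established triple-negative breast cancer line with mesenchymal features. They were grown as adherent cultures and received DMSO, the solvent, or PCI-24781 at 100 nM or 200 nM, for 24 h or 48 h, and each of the 6 conditions gave 1 RNA-seq library. No condition had a replicate, so no difference has a replicate error and none was tested. The model is a single cell line, and the time in culture differed along with the time in drug. Values are FPKM, in which the fragments of a gene are divided by the length of its transcript and by the size of the library, so that levels can be set side by side between genes. A difference between 2 libraries is given as the difference in log2(FPKM + 1), in which a pseudocount of 1 understates the change of low genes. A gene counted as changed when that difference reached 2-fold and its FPKM was at least 1 in either library.

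A single residue of the catalytic pocket separates class IIa from the other classes. The coding sequence around its codon is shown for 4 members with a tyrosine codon and for 2 class IIa members with a histidine codon, read from GRCh38 with GENCODE transcripts, 63 bases each, 5′ to 3′ on the coding strand. Capitals mark the codon of that residue, and the sequences are shown because the members that differed most between libraries, HDAC5 and HDAC11, fall on opposite sides of it.
HDAC1: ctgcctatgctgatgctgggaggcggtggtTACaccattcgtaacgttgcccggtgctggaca
HDAC3: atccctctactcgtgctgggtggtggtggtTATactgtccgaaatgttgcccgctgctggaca
HDAC6: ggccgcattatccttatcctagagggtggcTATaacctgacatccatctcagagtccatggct
HDAC11: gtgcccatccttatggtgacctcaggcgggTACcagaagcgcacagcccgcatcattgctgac
HDAC5: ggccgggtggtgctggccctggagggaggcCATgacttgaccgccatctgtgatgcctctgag
HDAC7: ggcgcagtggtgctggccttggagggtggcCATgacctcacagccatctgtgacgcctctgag

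The codon lay at chr1:32330836-32330838 (plus strand, exon 9 of 14) in HDAC1, where it is codon 303 of 482. In HDAC5 it lay at chr17:44079204-44079206 (minus strand, exon 24 of 27), as codon 1007 of 1123. HDAC2 and HDAC8 also carried tyrosine, at codons 304 and 306, and HDAC4 and HDAC9 carried histidine, at codons 976 and 959. HDAC6 has a pair of catalytic domains, and of the 2 matches in its coding sequence the second, codon 782, is the one printed. Over the 63 bases, HDAC5 matched HDAC7 at 54 positions and HDAC4 at 52, but HDAC1 at only 19. HDAC1 and HDAC2, the closest relatives of class I, matched at 49, and HDAC1 and HDAC3 at 48. The expression tables summed several transcripts for some members. Of the coding transcripts that could be matched to GENCODE, 3 of 9 for HDAC9 and 2 of 6 for HDAC8 held the codon, while every matched transcript of the other 8 members did. FPKM values of HDAC9 and HDAC8 can therefore include transcripts that lack this stretch, in shares that these gene-level values do not give.

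The depth of the libraries, inferred from low values of short genes, was about 15700000 to 18100000 fragments. At these depths a member rested on roughly 119 fragments (HDAC11, lowest library) to 5195 fragments (HDAC2, highest library). An approximate standard error from counting alone was 0.09 for HDAC5 and 0.17 for HDAC11 between DMSO 48 h and DMSO 24 h on the log2 scale. It was calculated without a pseudocount, and it holds no variation between cultures. The line's markers were as its label says, with VIM, the mesenchymal filament protein, at 1629 to 2053 FPKM and the receptor genes ESR1 and PGR at no more than 0.04, while ERBB2, which is not amplified in this line, was at 13.2 to 21.4. Of the markers of other cells, the T cell gene CD3E and the endothelial genes VWF and CDH5 were at no more than 0.04 in every library. The 3 endothelial markers summed to 0.39 to 1.28 FPKM in the 24 h libraries and 1.10 to 2.38 in the 48 h libraries, nearly all of it PECAM1, and the 2 leukocyte markers found summed to 0.76 to 1.05, nearly all of it PTPRC. Markers of luminal breast cells that this line also expresses were high, with KRT8 at 61.5 to 99.3 and KRT18 at 89.0 to 110.6 FPKM, while FOXA1 was at 1.28 to 1.75. EPCAM, listed as low in this line, was at 2.26 to 4.70.

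The DMSO 24 h library stood apart from the DMSO 48 h library. Between these untreated libraries 286 of 11490 genes were at least 2-fold higher at 48 h and 15 were lower. CDKN1A, the p21 cell cycle inhibitor whose induction is the best known response to HDAC inhibitors, had 13.2 FPKM in DMSO, 30.6 at 100 nM and 48.8 at 200 nM after 24 h. After 48 h it had 44.3 FPKM in DMSO, 25.8 at 100 nM and 52.9 at 200 nM, so the 100 nM 48 h library was below its DMSO library and the DMSO 48 h library was nearer to the 200 nM libraries than to DMSO 24 h. Time in culture, a DMSO 24 h library that stands apart for another reason and exchanged labels at 48 h cannot be told apart with 1 library per condition. For HDAC5, HDAC8, HDAC9 and HDAC11, whose differences moved by over 0.1 when the DMSO library of the other time was the reference, those values are given with their results.

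Class I genes held most of the summed FPKM of the 10 genes read here. Summed over the 10 genes, class I took 79.3%, 79.6% and 80.8% of the FPKM in DMSO, 100 nM and 200 nM after 24 h, against 74.0%, 75.4% and 74.8% at 48 h. Class IIa took 12.8% to 13.99% at 24 h and 17.3% to 18.6% at 48 h. The ranges of these shares over the 3 libraries of each time did not overlap for either class, but a share depends on the other classes too. The class IIa sum was larger at 48 h (38.3 to 39.8 FPKM) than at 24 h (28.8 to 30.4 FPKM). The class I sum overlapped between the times, with 163.1 to 192.95 FPKM at 24 h and 158.2 to 166.4 FPKM at 48 h. Ordered by mean level, the genes ran HDAC1, HDAC3, HDAC2, HDAC7, HDAC6, HDAC8, HDAC5, HDAC9, HDAC11 and HDAC4. The 6-library ranges of HDAC3 and HDAC2, of HDAC2 and HDAC7, and of HDAC7 and HDAC6 did not overlap. All other neighbours in that order overlapped, so their order is not settled across libraries, although HDAC9 was above HDAC11 in 6 of 6 libraries. HDAC5 moved within the order, since it was below HDAC8 in 2 libraries (DMSO and 100 nM at 24 h) and above it in the other 4. RNA came from whole cultures, so a level that differs in all cells and one that differs in a fraction of them cannot be told apart.

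**Figure D1:**
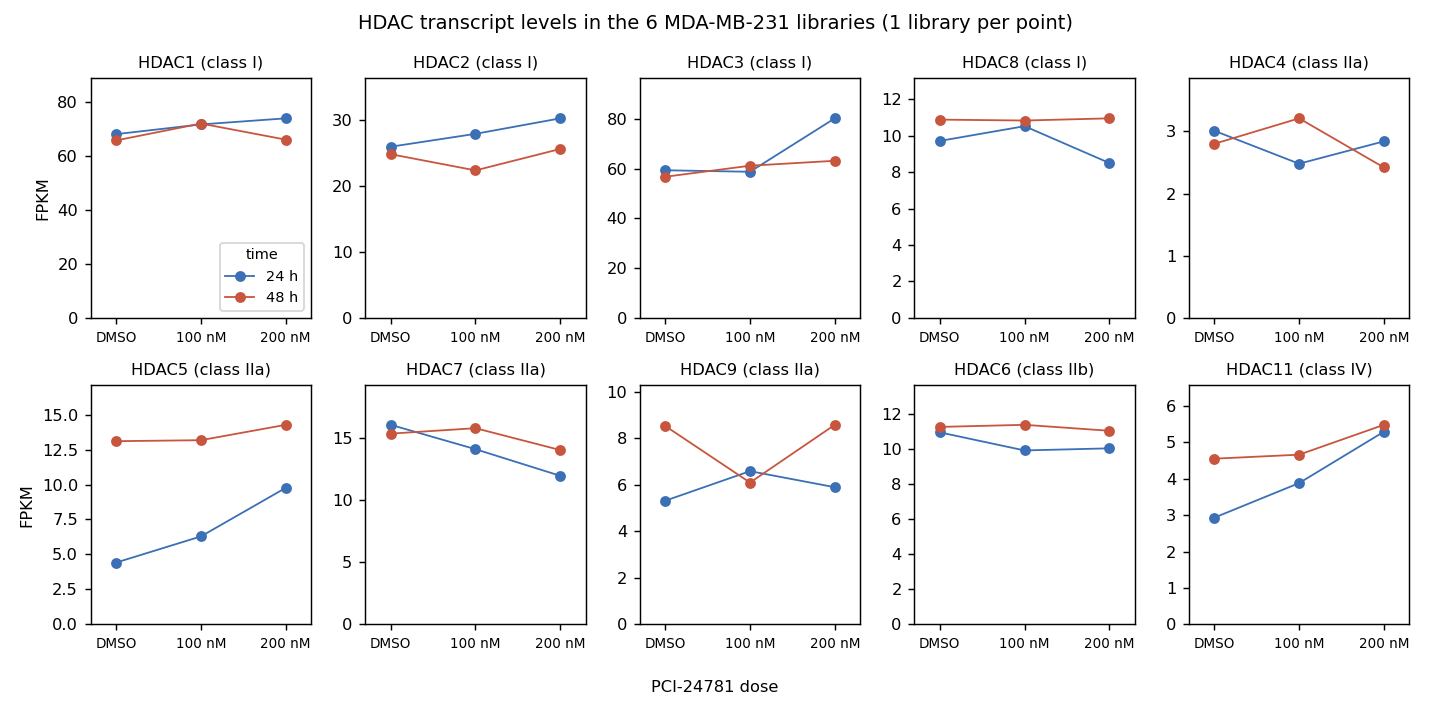
FPKM of each of the 10 HDAC genes (vertical axis, from 0, own scale per gene) against PCI-24781 dose (DMSO, 100 nM, 200 nM), with blue points for 24 h and red points for 48 h and 1 library per point. HDAC5 went from 4.42 to 9.76 FPKM over the 24 h libraries and lay between 13.1 and 14.3 at 48 h, while HDAC1 kept between 65.9 and 74.1 in all 6.

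No HDAC gene reached 2-fold on the log2(FPKM + 1) scale in any comparison of PCI-24781 with DMSO of the same time. HDAC5 at 200 nM 24 h had 2.21 times the FPKM of DMSO, and it was called with either smaller pseudocount or after rescaling to TPM. At 24 h, 0 of 10 members passed at 100 nM, where 1.48% of 11475 tested genes did, and 0 of 10 at 200 nM, where 5.94% of 11660 did. At 48 h, 0 of 10 passed at 100 nM and 0 of 10 at 200 nM, beside 0.469% and 0.266% of all tested genes. The median difference over the members was 0.09 at 100 nM and 0.12 at 200 nM after 24 h, and 0.02 and 0.01 after 48 h, against medians between -0.01 and 0.01 over all tested genes.

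**Figure D2:**
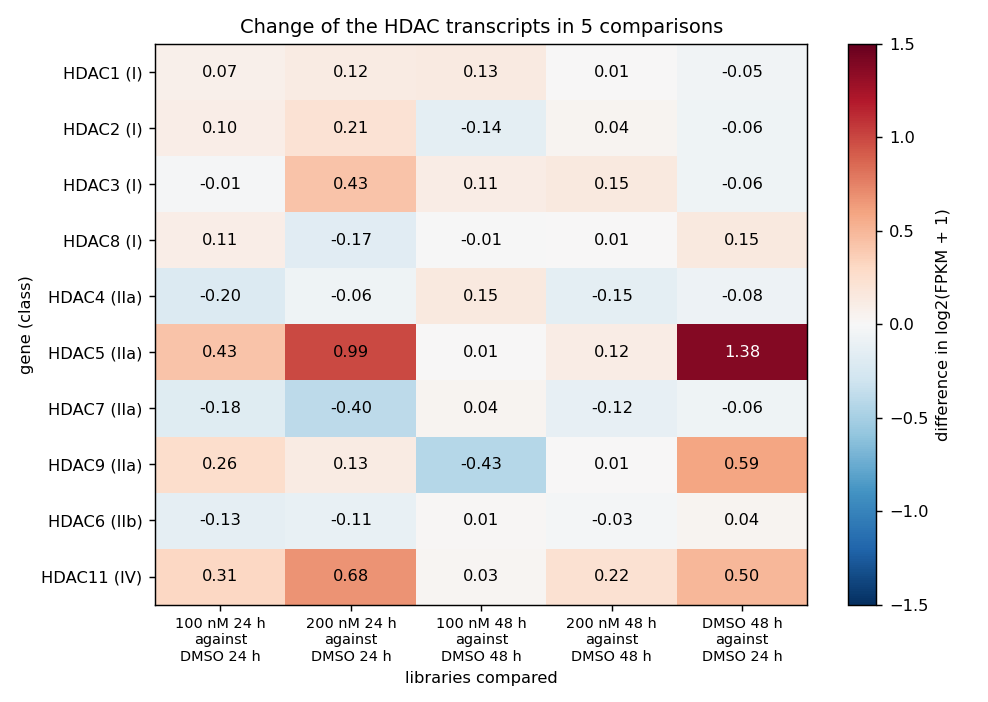
Difference in log2(FPKM + 1) for each HDAC gene (rows, with class) in the 4 comparisons of PCI-24781 with DMSO of the same time and in DMSO 48 h against DMSO 24 h (columns), with red for higher and blue for lower in the library named first. HDAC5 had the largest values, 0.99 at 200 nM 24 h and 1.38 between the DMSO libraries, and only the latter passed 2-fold.

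HDAC1, the most abundant member and a catalytic subunit of the SIN3, NuRD and CoREST complexes, varied least of all members. It had 68.2, 71.8 and 74.1 FPKM in DMSO, 100 nM and 200 nM after 24 h, against 65.9, 72.1 and 66.2 at 48 h. The highest library was 1.12 times the lowest. Its 4 differences to DMSO lay between 0.01 and 0.13, and the DMSO libraries differed by -0.05. HDAC2, its close paralog and partner in the same complexes, had 25.9, 27.9 and 30.2 FPKM after 24 h, against 24.8, 22.4 and 25.6 after 48 h. The 24 h libraries followed the dose and the 48 h libraries did not, with differences of 0.10 and 0.21 after 24 h, then -0.14 and 0.04 after 48 h.

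HDAC3, the catalytic subunit of the NCoR/SMRT complexes, had 1 library that stood out. Its 24 h levels were 59.3 FPKM with DMSO, 58.7 with 100 nM and 80.2 with 200 nM, and its 48 h levels were 56.7, 61.1 and 63.1. The 200 nM 24 h library was above the other 5, which lay within 56.7 to 63.1. It exceeded DMSO 24 h by 0.43 on the log2 scale, 1.35 times in FPKM, and it exceeded 100 nM 24 h by 0.44, beside an approximate counting error of 0.042. At 200 nM 24 h, 67.7% of all tested genes had a smaller difference in either direction. Against DMSO 48 h the same library differed by 0.49, so the direction did not depend on the choice of DMSO library.

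HDAC3 lies at chr5:141000443-141016423 (hg19, minus strand) and is transcribed away from RELL2, a gene for a membrane protein of the RELT family on the plus strand whose annotated start is 93 bases from that of HDAC3 in the files' coordinates. The stretch the pair share is shown because both transcripts were highest in the 200 nM 24 h library. Between the outermost GENCODE release 29 starts of the 2 genes it holds 79 bases, at chr5:141636871-141636949 in GRCh38.p14. It is printed on the strand of HDAC3 and in lower case throughout because no motif was searched, and 74.7% of its bases are G or C.
HDAC3-RELL2: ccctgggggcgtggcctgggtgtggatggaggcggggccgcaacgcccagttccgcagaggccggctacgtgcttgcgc
RELL2 had 2.04, 3.75 and 5.43 FPKM after 24 h, against 2.65, 2.38 and 2.68 after 48 h, and was chosen after its values were seen. Its difference at 200 nM 24 h was 1.08, and at 100 nM 24 h it was 0.64 where that of HDAC3 was -0.01. Both genes were near their DMSO level at 48 h, RELL2 at -0.11 and 0.01 and HDAC3 at 0.11 and 0.15. RELL2 also overlaps FCHSD1, a minus-strand gene at chr5:141018869-141030986 (hg19). FCHSD1 had 8.07, 9.25 and 13.19 FPKM after 24 h, against 9.20, 10.22 and 11.74 after 48 h, so it too was highest at 200 nM 24 h. The strand setting of the counting is not given, and whether the RELL2 values hold reads of FCHSD1 was not tested.

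HDAC8, the class I enzyme that works outside the large complexes and deacetylates cohesin, was flat at 48 h. It had 9.71, 10.5 and 8.50 FPKM after 24 h, against 10.9, 10.8 and 10.95 after 48 h. The lowest library was 200 nM 24 h, with a difference of -0.17 to its DMSO and of -0.32 to DMSO 48 h. At 100 nM 24 h the difference was 0.11 to DMSO 24 h and -0.04 to DMSO 48 h. The 48 h libraries differed from DMSO 48 h by -0.01 and 0.01, and from DMSO 24 h by 0.14 and 0.16. None of the 5 differences of HDAC8 (4 to DMSO and 1 between the DMSO libraries) exceeded 2 approximate counting errors. The same was true of HDAC6, while the other members exceeded that limit in 1 (HDAC4) to 4 (HDAC2) of the 5 comparisons. The errors hold no pseudocount and the differences do, so members of low level passed less often. With a pseudocount of 0.01, HDAC4 also passed at 100 nM 48 h (0.196 beside an error of 0.093) and at 200 nM 48 h (-0.210 beside 0.104). Counting error is smallest for the abundant genes, and the limit says nothing about variation between cultures.

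HDAC5 was the member that differed most between libraries. This class IIa corepressor binds MEF2 factors and leaves the nucleus when phosphorylated, and its gene lies at chr17:42154121-42201014 (hg19, minus strand). The 24 h libraries had 4.42 FPKM with DMSO, 6.29 with 100 nM and 9.76 with 200 nM. The 48 h libraries had 13.1 with DMSO, 13.2 with 100 nM and 14.3 with 200 nM. The 3 libraries of 24 h were ordered by dose and were all below the 3 libraries of 48 h, which lay within 1.09 times of each other. HDAC6 and HDAC8 were also lower in every 24 h library than in any 48 h library, by less. HDAC6 had 9.91 to 10.94 FPKM against 11.03 to 11.37, and HDAC8 had 8.50 to 10.52 against 10.83 to 10.95. The share of all genes with such a separation was not counted.

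At 100 nM 24 h the level of HDAC5 was 1.42 times that of DMSO, a log2 difference of 0.43, and 86.7% of tested genes had a smaller one. At 200 nM 24 h it was 2.21 times, with a log2 difference of 0.99 that stopped just short of the 2-fold limit because of the pseudocount, and 93.9% of tested genes had a smaller one. With a pseudocount of 0.1 the difference was 1.13 and passed the limit. The step from 100 nM to 200 nM was 0.56. At 48 h the differences were 0.01 and 0.12, a size at the middle or low end of all genes, with 3.40% and 51.2% of tested genes below them. With a limit of 1.5-fold, HDAC5 and HDAC11 passed at 200 nM 24 h, both higher, where 12.5% of all genes passed in that direction. No member passed that limit in the other 3 comparisons with DMSO, where 6.8% (100 nM 24 h), 2.26% (100 nM after 48 h) and 1.99% (200 nM after 48 h) of all genes did in either direction. At a lower limit, a ratio of 5 to 4, HDAC5 was the only member to pass at 100 nM 24 h, where 15.1% of all genes were higher, and 0 of 10 passed at 200 nM 48 h, where 10.3% of all genes passed in either direction.

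Between the untreated libraries HDAC5 had 2.96 times the level at 48 h that it had at 24 h. The log2 difference of 1.38 was larger than that of 99.2% of tested genes, and HDAC5 was the only member of the 10 to reach 2-fold, where 2.49% of 11490 genes were called higher. The difference between times was 0.96 at 100 nM and 0.51 at 200 nM, so it was smaller at each higher dose. With the 100 nM 48 h library in place of DMSO 48 h, HDAC5 differed from DMSO 24 h by 1.39, so this value did not rest on which of the 48 h libraries was taken. The dose series at 24 h did rest on its reference. Against DMSO 48 h, HDAC5 was lower by 0.95 at 100 nM 24 h (log2 difference -0.95) and lower by 0.39 at 200 nM 24 h (-0.39). Against DMSO 24 h, the 48 h libraries were at 1.39 with 100 nM and 1.49 with 200 nM. The endothelial marker sum was also lowest in DMSO 24 h (0.39 FPKM) and highest in 200 nM 48 h (2.38 FPKM), with VWF and CDH5 at no more than 0.03, and CDKN1A was lowest in DMSO 24 h. Their part in the HDAC5 values was not tested.

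**Figure D3:**
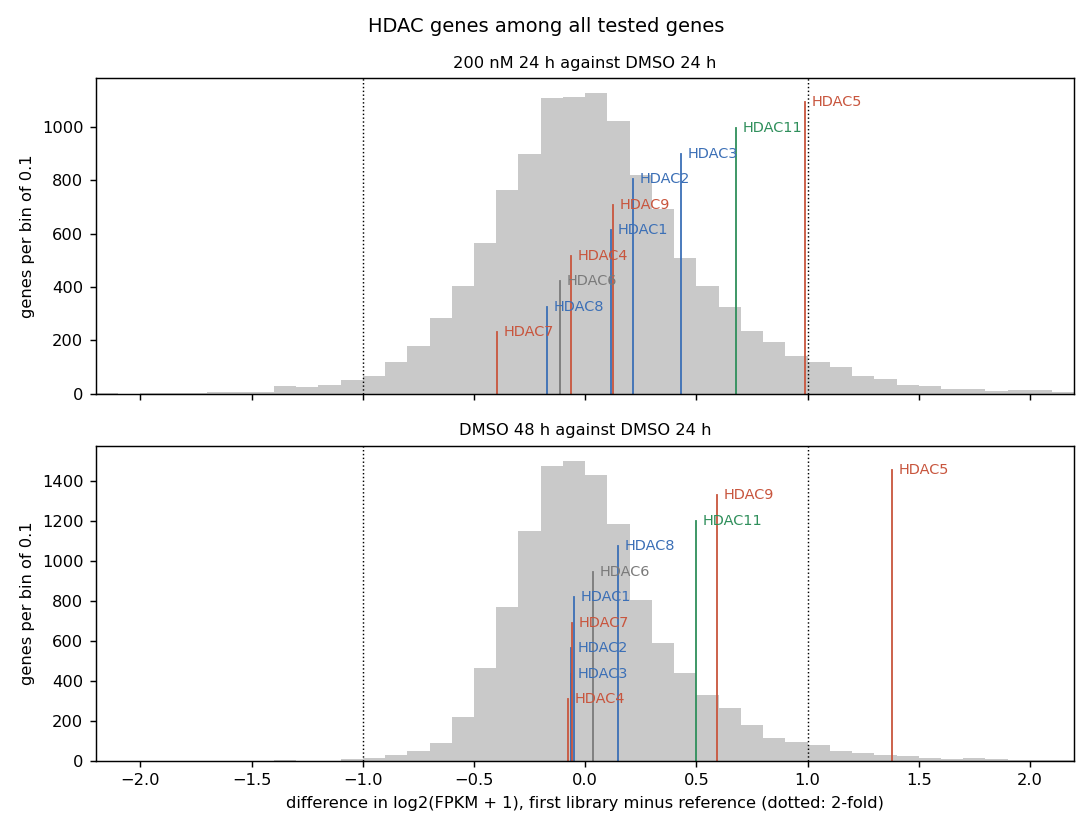
Histograms of the difference in log2(FPKM + 1) over all tested genes (grey, genes per bin of 0.1) for 200 nM 24 h against DMSO 24 h (top) and DMSO 48 h against DMSO 24 h (bottom), with each HDAC gene as a coloured line (blue class I, red class IIa, grey class IIb, green class IV; heights only space the names) and dotted lines at 2-fold. HDAC5 sat at 0.99 in the top panel and at 1.38 in the bottom one, to the right of nearly all genes, while 9 members lay within 2-fold in both.

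The genes most like HDAC5 followed the same staircase over the 6 libraries. Among 4662 genes with at least 1 FPKM everywhere and a range of at least 0.5 on the log2 scale, 132 had a Pearson correlation of at least 0.95 with HDAC5. This is a description over 6 libraries that share the drug, the time and the depth, and it carries no test. NDRG1, a stress-induced gene of iron lack and hypoxia, had r = 0.999 and went from 101 FPKM in DMSO 24 h to 172 and 343 with dose, and to 528, 555 and 688 at 48 h. SELENOM, a selenoprotein of the endoplasmic reticulum, had r = 0.999, with 9.80 FPKM in DMSO 24 h and 16.99 at 200 nM 48 h. FBXO32, the atrogin-1 ubiquitin ligase subunit, had r = 0.997 and 1.70 to 6.71 FPKM. EPB41, a membrane skeleton protein, had r = 0.996, with 3.19 FPKM in DMSO 24 h and 5.80 at 200 nM 48 h.

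HDAC7, the most abundant class IIa member, went the other way with dose at 24 h. It had 16.1, 14.1 and 11.95 FPKM in DMSO, 100 nM and 200 nM after 24 h, against 15.3, 15.8 and 14.02 at 48 h. The 200 nM library was the lowest of its time at both times. The differences to DMSO were -0.18 and -0.40 after 24 h, then 0.04 and -0.12 after 48 h, and against DMSO 48 h the 24 h libraries were at -0.11 and -0.34. At the 5 to 4 limit HDAC7 was the only member lower at 200 nM 24 h, where 20.3% of all genes were, and HDAC3, HDAC5 and HDAC11 were the 3 higher, where 24.6% of all genes were. The 3' ends of HDAC7 (minus strand) and SLC48A1 (plus strand) overlap by 44 bases in the files' coordinates, and the strand setting of the counting is not given in the sources used here. SLC48A1 had 11.5, 14.1 and 17.5 FPKM after 24 h, against 12.7, 12.5 and 13.8 after 48 h, opposite to HDAC7 at 24 h.

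HDAC9, a class IIa member known for its many splice forms, had 1 library that stood apart at 48 h. It had 5.31, 6.58 and 5.89 FPKM after 24 h, against 8.52, 6.09 and 8.57 after 48 h. DMSO and 200 nM at 48 h were the 2 highest libraries, and 100 nM 48 h was within the 24 h range. The difference was 0.26 at 100 nM and 0.13 at 200 nM after 24 h, and -0.43 and 0.01 after 48 h. The -0.43 was larger in size than that of 94.5% of tested genes, and at the 5 to 4 limit HDAC9 was the only member to pass at 100 nM 48 h, where 7.03% of all genes were lower. Between the DMSO libraries HDAC9 differed by 0.59, and with the 100 nM 48 h library in place of DMSO 48 h that value was 0.17. Against DMSO 48 h the 24 h libraries of HDAC9 turned lower, to -0.33 at 100 nM and -0.47 at 200 nM, and against 100 nM 48 h the 200 nM 48 h library was at 0.43. Against DMSO 24 h, the 100 nM 48 h library was at 0.17 and the 200 nM 48 h library at 0.60. HDAC4, the class IIa founder with roles in muscle and bone, was the least abundant member on average. It had 3.01, 2.48 and 2.84 FPKM after 24 h, against 2.80, 3.21 and 2.42 after 48 h, with no order by dose at either time. Its differences were -0.20 and -0.06 after 24 h, then 0.15 and -0.15 after 48 h. Against 100 nM 48 h in place of DMSO 48 h, the 200 nM 48 h library was at -0.30 for HDAC4, as it was at -0.12 for HDAC1, 0.19 for HDAC2 and 0.05 for HDAC3.

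The make-up of class IIa differed between the libraries. HDAC5 was 15.4% of the summed class IIa FPKM in DMSO 24 h, 21.4% with 100 nM and 32.1% with 200 nM, and it was 32.9%, 34.4% and 36.3% at 48 h. HDAC7 was the largest class IIa transcript in all 6 libraries except 200 nM 48 h, where HDAC5 had 14.3 FPKM and HDAC7 had 14.02. The class IIa sum itself differed little between the 24 h libraries, with the higher level of HDAC5 at 200 nM (from 4.42 to 9.76 FPKM) beside the lower level of HDAC7 (from 16.1 to 11.95 FPKM).

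**Figure D4:**
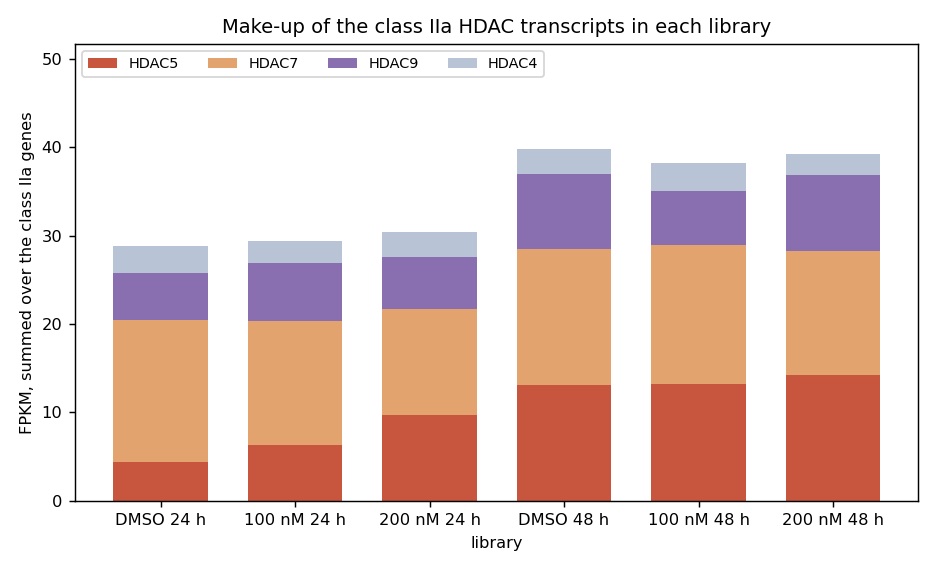
FPKM of the 4 class IIa genes stacked for each library (vertical axis from 0, 1 library per bar; HDAC5 red, HDAC7 orange, HDAC9 purple, HDAC4 grey-blue). The red part grew from 15.4% of the bar in DMSO 24 h to 36.3% at 200 nM 48 h, and the whole bar was 28.8 to 30.4 FPKM at 24 h and 38.3 to 39.8 at 48 h.

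HDAC6, the cytoplasmic class IIb enzyme that deacetylates alpha-tubulin, HSP90 and cortactin, was nearly flat. It had 10.9, 9.91 and 10.03 FPKM after 24 h, against 11.3, 11.4 and 11.03 after 48 h, and the highest library was 1.15 times the lowest. The differences to DMSO were -0.13 and -0.11 after 24 h, then 0.01 and -0.03 after 48 h. HDAC11, the only class IV member and a fatty-acyl hydrolase, followed dose at both times. It had 2.93, 3.88 and 5.29 FPKM after 24 h, against 4.55, 4.66 and 5.48 after 48 h. The differences were 0.31 and 0.68 after 24 h, then 0.03 and 0.22 after 48 h, with approximate counting errors of 0.15 to 0.18. Of these differences, only the 200 nM 24 h value exceeded 2 such errors. The errors hold no pseudocount, however, and with a pseudocount of 0.01 the difference at 100 nM 24 h was 0.40, which exceeded that limit too. At 200 nM 24 h its FPKM was 1.81 times that of DMSO, and 85.2% of tested genes had a smaller difference. Against DMSO 48 h, HDAC11 was at -0.19 at 100 nM and 0.18 at 200 nM after 24 h, so only the 200 nM library of that time was above both DMSO libraries. Against DMSO 24 h, the 48 h libraries of HDAC11 were at 0.53 with 100 nM and 0.72 with 200 nM.

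Between the DMSO libraries, HDAC11 was higher at 48 h by 0.50, or by 0.53 with the 100 nM 48 h library in place of DMSO 48 h. HDAC5, HDAC9 and HDAC11 were the 3 members that passed the 5 to 4 limit, all higher, where 18.7% of all genes were. At 1.5-fold, HDAC5 and HDAC9 passed, where 8.49% of all genes did. The other 7 members differed between the DMSO libraries by -0.08 to 0.15. The median over the 10 members was -0.01.

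The genes that work with the HDACs were read from lists of known partners. None of the 7 sirtuins, the NAD-dependent deacetylases that zinc-binding drugs do not block, was at least 2-fold higher or lower in the 4 comparisons with DMSO of the same time, with 6 of 7 above the filter on low values and between 0.266% and 5.94% of all tested genes called in them. Their median was -0.09 and 0.30 after 24 h, then 0.10 and -0.01 after 48 h. SIRT2, a cytoplasmic tubulin deacetylase, differed by 0.02 and 0.71 after 24 h, then 0.46 and 0.04 after 48 h. SIRT5, the mitochondrial desuccinylase, differed by 0.21 and 0.29 after 24 h, then -0.04 and 0.12 after 48 h. SIRT1, the nuclear member that deacetylates p53, was at -0.24 and -0.36 and then 0.12 and -0.03, and SIRT3, the main mitochondrial deacetylase, was at -0.34 and -0.19 and then 0.33 and -0.15.

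Of 27 subunits of the class I complexes, 26 or 27 passed the filter and 1 reached 2-fold, lower at 200 nM 24 h. In that comparison 1.48% of all tested genes were called lower and 5.94% in either direction. CHD3, an ATPase of the NuRD complex, had 26.6 FPKM in DMSO and 9.77 at 200 nM there, a log2 difference of -1.36. It differed by -0.76 at 100 nM 24 h, and at 48 h by 0.57 at 100 nM and -0.44 at 200 nM. The median over the list was -0.05 and -0.13 after 24 h, then 0.08 and -0.03 after 48 h. The catalytic members HDAC1, HDAC2 and HDAC3, in the same complexes, were between -0.01 and 0.43 at 24 h.

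Of 26 partners and regulators of class IIa, 25 were found, and 0 reached 2-fold in any of the 4 comparisons, where 1.48% and 5.94% (24 h), and 0.469% and 0.266% (48 h), of all tested genes did. MEF2B, a transcription factor of the family that class IIa HDACs bind, was at 0.40 and 0.67 after 24 h, then 0.31 and 0.44 after 48 h. PRKD2, a protein kinase D that phosphorylates class IIa HDACs, was at 0.09 and 0.76 after 24 h, then 0.22 and 0.21 after 48 h. SFN, 14-3-3 sigma, was at -0.34 and -0.85 after 24 h, then -0.14 and -0.31 after 48 h, and RFXANK, an ankyrin repeat protein that binds class IIa HDACs, was at -0.59 and -0.77 and then -0.01 and -0.26. The medians over the list were 0 and 0.03 after 24 h, then 0.07 and -0.0016 after 48 h.

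Of 13 HDAC6 substrates and partners, all passed the filter and 0 reached 2-fold against DMSO of the same time, beside the same 0.266% to 5.94% of all tested genes. The median over the list was -0.16 and -0.07 after 24 h, then 0.04 and -0.0042 after 48 h. TUBA1A, an alpha-tubulin whose acetyl group HDAC6 removes, was at 0.69 and 0.80 after 24 h, then -0.34 and -0.01 after 48 h. TUBA4A was at 0.38 and 0.35 and then -0.10 and -0.0023. TUBA1B was at -0.41 and -0.75 after 24 h, then 0.04 and -0.36 after 48 h. TUBA1C was at -0.17 and -0.36 and then -0.16 and -0.08. Alpha-tubulin genes are similar in sequence, to different degrees, and any reads shared between them could be split in ways that the FPKM do not show.

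Of 7 genes known to respond to HDAC inhibitors, CDKN1A was higher than DMSO by 1.16 at 100 nM and 1.81 at 200 nM at 24 h. DHRS2, a mitochondrial reductase gene induced by such drugs, was higher by 1.36 at 200 nM 24 h, with 0.21 FPKM in DMSO and 2.11 at 200 nM, and it was at 0.20 to 0.34 in the 3 libraries of 48 h. At 48 h, CDKN1A was at -0.76 and 0.25. CDKN1A was the only 1 of 6 tested genes called at 100 nM 24 h, beside 1.35% of all tested genes called higher. CDKN1A and DHRS2 were the 2 of 7 called at 200 nM 24 h, beside 4.47% called higher. No gene of the list was called at 48 h. The median of the list was -0.02 and 0.36 after 24 h, then 0.26 and -0.06 after 48 h. At 24 h, 3 of 6 genes were above DMSO at 100 nM and 5 of 7 at 200 nM, and the lowest differences were -0.59 and -0.56. The HDAC members with the widest 24 h differences, HDAC5 and HDAC11, shared with CDKN1A the order DMSO, 100 nM, 200 nM at 24 h. HDAC1 and HDAC2 had that order too, and the share of all genes with it was not counted. At 48 h neither HDAC5 nor HDAC11 had the low 100 nM value that CDKN1A had, and nor did HDAC1, while HDAC2 was lowest at 100 nM (24.8, 22.4 and 25.6 FPKM).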

How the data were processed

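RNA was sequenced from MDA-MB-231 cells in 6 conditions with 1 library each. The authors deposited FPKM per gene, rounded to 2 decimals. The submitters' processing notes name Bowtie2, RSEM and hg19, while the library's strand, the annotation release and the aligner settings are not given in the sources used here. RefSeq GRCh38.p14 gave symbols for 16585 of the 16623 Gene IDs. Differences were calculated as log2(FPKM + 1) for genes with 1 FPKM or more in at least 1 of the libraries compared, and called at 2-fold. Each condition had 1 library, so no test was made and no p-value was calculated. A fit of dose and time without their interaction would take that interaction as error and was not made. The calling was tested on simulated data with planted changes well beyond 2-fold and with counting noise alone. That test did not cover changes near the 2-fold limit, genes as low as HDAC4 and HDAC11 or variation between cultures. Depth was inferred from genes with 1 transcript of 500 to 1500 bases, using GENCODE release 29 lengths. All members were named, together with the listed partners that reached 2-fold against DMSO, or otherwise the 2 highest and 2 lowest by mean difference. The members and lists were chosen with earlier results of these data known. Alternatives were pseudocounts of 0.1 and 0.01, no filter, the filter in both libraries, TPM, median-of-ratios factors, 1.5-fold and 1.25-fold limits and, chosen after seeing the data, other reference libraries. Some genes are not reported here. The software was Python 3.11.15 with pandas 2.3.3, numpy 2.4.6 and, for plots, matplotlib 3.10.9.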

Additional observations from a re-analysis of the deposited data

Results flagged for a closer look

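At 100 nM, 9 of the 25 HDAC genes and listed genes named here differed from DMSO in opposite directions at 24 h and 48 h, by at least 0.1 on the log2 scale at each time. So did 32.0% of the 11336 genes tested at both times, and 3 of the 10 HDAC genes. With 1 library per condition this difference between times was not tested. All of these values share the DMSO 24 h, DMSO 48 h and 100 nM 48 h libraries, whose part in them was not tested. Among the HDAC genes, HDAC2 was at 0.10 at 24 h and -0.14 at 48 h, HDAC4 at -0.20 and 0.15, and HDAC9 at 0.26 and -0.43. Of the sirtuins, SIRT1 was at -0.24 and 0.12 and SIRT3 at -0.34 and 0.33. CHD3, the NuRD ATPase, was at -0.76 and 0.57. The alpha-tubulin genes TUBA4A and TUBA1A were at 0.38 and -0.10 and at 0.69 and -0.34. CDKN1A, the p21 gene, was at 1.16 and -0.76. At 200 nM 0 of these 25 did, beside 7.25% of 11485 tested genes.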

How the results depend on the processing

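No paired analysis was possible because the labels give no replicate numbers and the results come from no test. The only member called, HDAC5 between the DMSO libraries, stayed called and higher under every setting tried, while its uncalled differences at 24 h turned negative against DMSO 48 h. At 200 nM 24 h, HDAC5 passed 2-fold with a pseudocount of 0.1, with 0.01 or after rescaling to TPM, so the count of members called went from 0 to 1 under each; it was 2 at 1.5-fold and 4 at a ratio of 5 to 4. At that ratio the count was 1 at 100 nM 24 h and 1 at 100 nM 48 h. Between the DMSO libraries it was 2 at 1.5-fold and 3 at the 5 to 4 ratio. Against the DMSO library of the other time, the median over members was -0.12 for the 100 nM 24 h library and -0.068 for the 200 nM 24 h library, and 1 member (HDAC5) was called in the 100 nM 48 h library and 1 in the 200 nM 48 h library. That reference moved 16 of 40 member differences by over 0.1, and the 100 nM 48 h library in place of DMSO 48 h moved 10 of 20. Each smaller pseudocount moved 4 of 50, and the other filters, TPM and median-of-ratios factors moved 0 of 50. Depth limits HDAC11 and HDAC8 most, at roughly 119 and 207 fragments in their lowest libraries.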
